A study of Mus musculus with 9 samples.

Results

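A set of 10 genes of cyclic nucleotide signaling were followed across the RNA-Seq libraries of cultured AdvSca1-SM cells: both subunit genes of the nitric oxide receptor (*Gucy1a1*, *Gucy1b1*), a cGMP-dependent kinase (*Prkg1*), the natriuretic peptide clearance receptor (*Npr3*), and 6 phosphodiesterases (*Pde1a*, *Pde3a*, *Pde3b*, *Pde4b*, *Pde4d*, *Pde5a*). They were taken by symbol from a fixed list of 10 names, each of which matched 1 Ensembl identifier among the 55416 genes counted, and all 10 passed the filter on low counts that left 14879 genes for testing. AdvSca1-SM cells are Sca1-bearing progenitors of the vessel adventitia that derive from smooth muscle. The study asked how the chromatin remodeler Brg1 takes part when these cells become myofibroblasts, and RNA-Seq was the readout of the culture experiment analysed here.

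There were 3 groups of 3 libraries, and the cells of all 9 came from the aorta and carotid arteries of pooled mice in which SM22α-Cre, a smooth muscle promoter driving Cre recombinase, had switched on a YFP reporter. In the Stem group the cells had vehicle and, by the study's text, stayed in stem cell medium. The medium used to maintain the cells holds 10% serum, basic fibroblast growth factor and epidermal growth factor, and the labels do not give the medium of the Stem group during treatment. In the TGF-β group, growth-arrested cells received 5 ng/mL TGF-β1 in DMEM with 0.1% serum. The Both group received the same TGF-β1 together with 50 μM PFI-3, an inhibitor directed at the Brg1 bromodomain. All cells had 0.1% DMSO, and the treatment lasted 72 hours. TGF-β1 and any change of medium, serum and growth factors cannot be told apart in the comparisons with Stem, whereas TGF-β and Both differed by PFI-3. Replicates were labelled by a number and a letter, and the labels say nothing of separate cultures or of what the letter marks. The study's text calls the 3 replicates of a condition independent and speaks of biological replicates in all its experiments. It does not say what set these replicates of pooled cells apart. The p-values therefore measure the spread between these samples, which may be technical.

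Cyclic nucleotides relay signals that relax and quiet vascular cells. Nitric oxide activates soluble guanylyl cyclase, a dimer of an alpha and a beta subunit, and natriuretic peptides activate membrane guanylyl cyclases; the cGMP made by both acts largely through cGMP-dependent protein kinase. Hormones and prostaglandins acting on Gs-coupled receptors raise cAMP through adenylyl cyclases, and phosphodiesterases, whose families differ in whether they hydrolyze cAMP, cGMP or both, end each signal.

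Libraries held between 35686291 and 47741128 counts, the lowest Spearman correlation between replicates across genes was 0.992, and values are given below as normalized counts, which are counts scaled to a library of 41184338. At this scale 3 counts, taken as the limit of detection in a library, equal between 2.63 and 3.26 normalized counts. The extraction note in the labels speaks of hepatic tissue, but 6 of 6 hepatocyte markers were at the limit of detection in all 9 libraries. Of 6 leukocyte markers, 3 (*Ptprc*, *Adgre1* and *Itgam*) were at that limit in all libraries, and the normalized counts of the list summed to 139.6 to 151.8 in the Stem libraries, 178.5 to 219.1 in TGF-β and 290.8 to 306.97 in Both. The summed level of 8 progenitor markers ranged from 54790 to 63229.9 normalized counts in the Stem libraries, from 18515 to 18745 in TGF-β and from 16723 to 17059 in Both. The 8 smooth muscle markers summed to between 10616 and 13334 in Stem, 22735 and 25198 in TGF-β, and 17436 and 18369 in Both. The corresponding ranges of 5 pericyte markers were 2716 to 3315, 23604 to 24955, and 14602 to 16122, those of 6 myofibroblast markers 334278 to 349742, 1123430 to 1201900, and 831722 to 878884, and those of 6 endothelial markers 163 to 386, 1328 to 1474, and 1027 to 1199. From Stem to TGF-β, 2 of 8 progenitor, 3 of 8 smooth muscle, 2 of 5 pericyte, 4 of 6 myofibroblast, 2 of 6 endothelial and 2 of 6 leukocyte markers rose more than 2-fold at an adjusted p below 0.05 (10.6% of all genes), and 4, 1, 2, 0, 2 and 0 fell (14.5% of all genes). The sums follow the most abundant genes of a list, while other genes of it went the other way. In mean normalized counts from Stem to TGF-β, *Acta2*, on the smooth muscle and myofibroblast lists, went from 4833 to 11215. *Myh11*, of the smooth muscle list, went from 263 to 88.3. Of the pericyte list, *Cspg4* went from 904 to 16076 and *Abcc9* from 648 to 66.6. Of the endothelial list, *Erg* went from 100 to 1346 and *Emcn* from 104 to 8.27. These marker levels moved along the same contrasts as the genes described below, and their part in those results was not tested. In bulk libraries, fewer cells that use a gene and less RNA per cell cannot be told apart.

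From Stem to TGF-β, 3 of the 10 genes changed more than 2-fold at an adjusted p below 0.05 in edgeR's quasi-likelihood test: *Gucy1b1* rose 3.71-fold, and *Pde1a* and *Pde4b* fell to levels 2.86-fold and 4.22-fold lower. *Pde3a*, *Pde3b* and *Pde4d* were also lower at an adjusted p below 0.05, by less than 2-fold. *Gucy1a1*, *Prkg1*, *Npr3* and *Pde5a* did not pass. Over all genes tested, 25.1% passed the threshold with the 2-fold minimum (10.6% higher and 14.5% lower) and 75.0% passed on the adjusted p alone (37.3% higher and 37.7% lower), so the shares of 3 and 6 of 10 were near these backgrounds. The median log2 fold change of the 10 genes was -0.38, against 0.00 over all genes. From Stem to Both the same count of 3 passed, again with *Gucy1b1* higher and *Pde1a* and *Pde4b* lower, and 8 of 10 passed on the adjusted p alone, 7 of them lower. The backgrounds were 22.8% (9.55% higher and 13.2% lower) and 73.3% (36.6% in each direction). The libraries did not overlap for 6 of 10 genes between Stem and TGF-β (76.8% of all genes) and for 8 of 10 between Stem and Both (74.7% of all genes). The median log2 fold change from Stem to Both was -0.44.

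Between TGF-β and Both, none of the 10 genes passed the threshold with the 2-fold minimum in edgeR or in DESeq2, where the background was 0.632% of all genes (0.161% higher and 0.470% lower). One, *Pde4d*, passed on the adjusted p alone, against 8.92% of all genes (3.54% higher and 5.38% lower), and 5 of 10 had an unadjusted p below 0.05. The Stem libraries are in neither group compared here, but they enter the filter, the scaling and the estimate of spread of the shared fit. Leaving out Stem replicate 1 or 2 brought *Gucy1b1*, *Prkg1*, *Pde1a* and *Pde4b* to adjusted p-values between 0.0132 and 0.0492. The TGF-β and Both libraries did not overlap for 7 of the 10 genes, and for 32.7% of all genes. The median log2 fold change was -0.05.

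**Figure D1:**
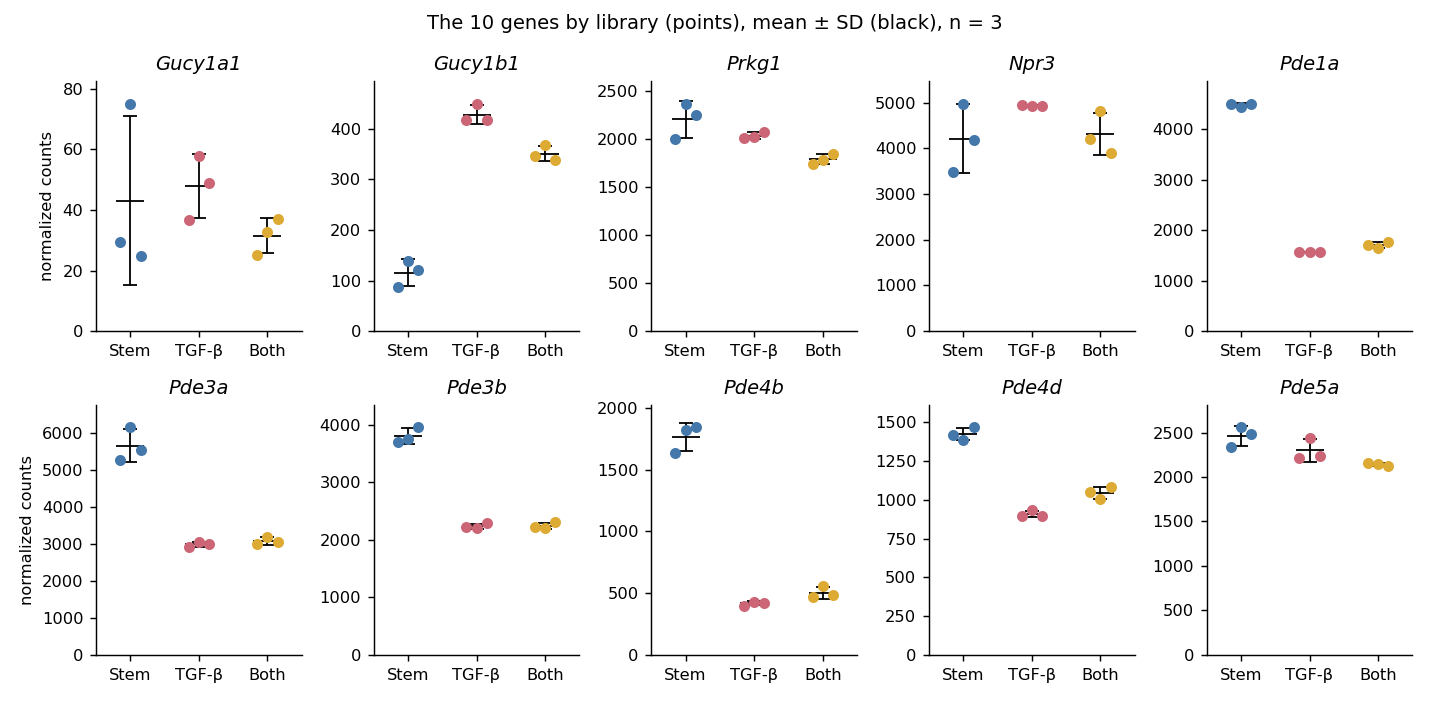
Normalized counts (vertical axes, each from 0) of the 10 genes in the 3 Stem, 3 TGF-β and 3 Both libraries; points are libraries and black bars show the mean ± SD. *Gucy1b1* stood at 86.9 to 139 in Stem and at 339 or more in all 6 other libraries, while *Pde1a* and *Pde4b* were lower in those 6 libraries than in any Stem library.

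**Figure D2:**
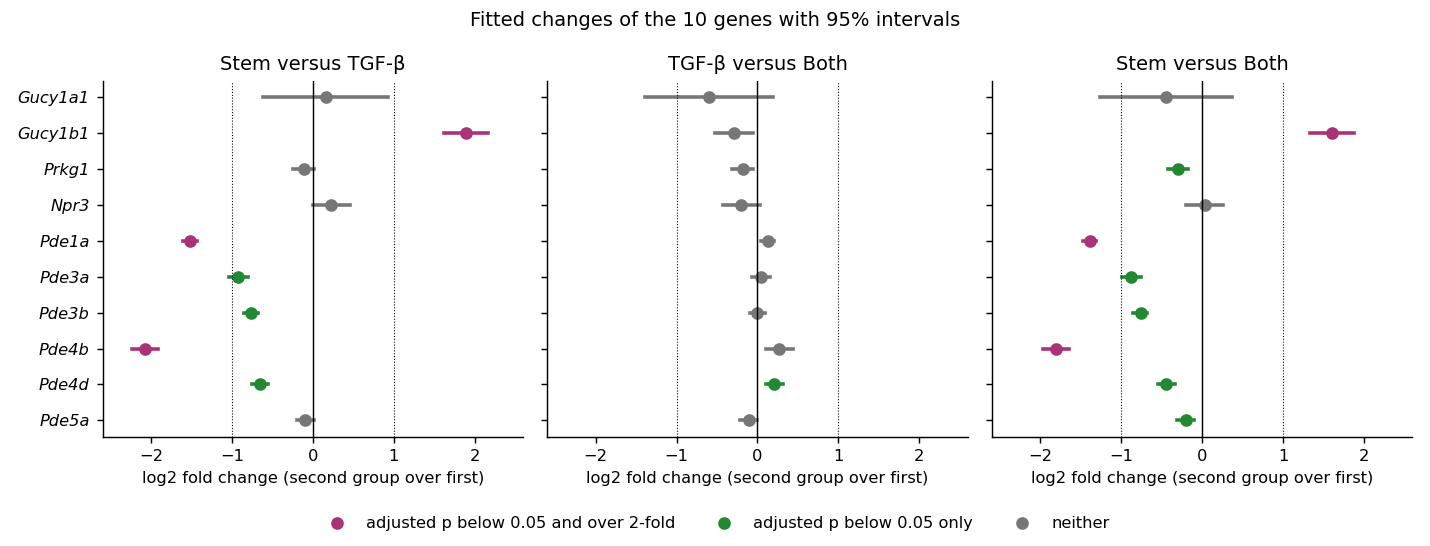
Fitted log2 fold changes (horizontal axes, second group over first) with 95% intervals for the 10 genes in the 3 comparisons; dotted lines mark 2-fold and colors mark which part of the threshold was passed. The 5 intervals of *Pde1a*, *Pde3a*, *Pde3b*, *Pde4b* and *Pde4d* lie below 0 in both comparisons with Stem, and *Gucy1b1* alone lies above 1.

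*Gucy1b1* (ENSMUSG00000028005) encodes the beta subunit of soluble guanylyl cyclase, which carries the heme that binds nitric oxide. Its normalized counts were 86.9, 139 and 120.1 in the Stem libraries, 417, 449 and 417 in TGF-β, and 346, 368 and 339 in Both. The 3 groups did not overlap, with Stem lowest and TGF-β highest. The log2 fold change was 1.89 (SE 0.126, 95% interval 1.62 to 2.17, adjusted p = 4.09e-08) from Stem to TGF-β and 1.61 (1.33 to 1.88, adjusted p = 2.19e-07) from Stem to Both. The difference of Both from TGF-β, -0.29 (-0.52 to -0.05), did not pass (adjusted p = 0.132).

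*Gucy1a1* (ENSMUSG00000033910) encodes the alpha-1 subunit, the usual partner of beta-1 in vascular muscle. It was the scarcest of the 10, also per kilobase, with normalized counts of 29.3, 75.0 and 24.9 in Stem, 36.7, 57.8 and 48.8 in TGF-β, and 25.2, 32.6 and 36.9 in Both. The groups overlapped throughout, and the second Stem library stood above all 8 others. No comparison passed: the log2 fold change was 0.16 (-0.62 to 0.93, adjusted p = 0.699) from Stem to TGF-β, -0.60 (-1.39 to 0.19, adjusted p = 0.348) from TGF-β to Both, and -0.44 (-1.26 to 0.37, adjusted p = 0.299) from Stem to Both. With Stem replicate 2 left out the first of these became 0.82 (adjusted p = 0.0126), so the value rests on that library, and intervals as wide as these do not show that the level was unchanged.

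Both subunit genes lie next to each other on the same strand, with 0 annotated genes between them, but their counts did not keep one ratio. Within a library, which removes any effect of scaling, there were 0.337, 0.539 and 0.207 *Gucy1a1* counts for each *Gucy1b1* count in Stem, 0.0881, 0.129 and 0.117 in TGF-β, and 0.0729, 0.0885 and 0.109 in Both. The mean log2 ratio was -1.58 ± 0.69 (SD, n = 3) in Stem, -3.19 ± 0.285 in TGF-β and -3.49 ± 0.289 in the Both group, and no Stem library overlapped the 6 treated ones. *Gucy1a2*, which encodes the alternative alpha-2 subunit and was chosen from the pathway list after its values were seen, was the more abundant alpha gene. It had 666, 714 and 665 normalized counts in the Stem libraries, 527, 453 and 479 in TGF-β, and 354, 354 and 409 in Both. It was 1.40-fold lower in TGF-β than in Stem (adjusted p = 9.48e-05) and a further 1.30-fold lower in Both than in TGF-β (adjusted p = 0.0109). Per kilobase of the longest transcript, *Gucy1a1* supplied 4.05% ± 2.32 (SD, n = 3) of the alpha-1 and alpha-2 mRNA in Stem, 6.38% ± 1.75 in TGF-β and 5.47% ± 0.705 in the Both group. On the same scale the alpha genes together stood at 6.34 ± 1.33 per unit of *Gucy1b1* in Stem, and at 1.21 ± 0.114 and 1.12 ± 0.137 in TGF-β and Both. With the median transcript length, added after the data were seen, these values became 4.32, 0.834 and 0.77, so whether the alpha or the beta transcripts were the more abundant in TGF-β and Both turns on the length used.

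**Figure D3:**
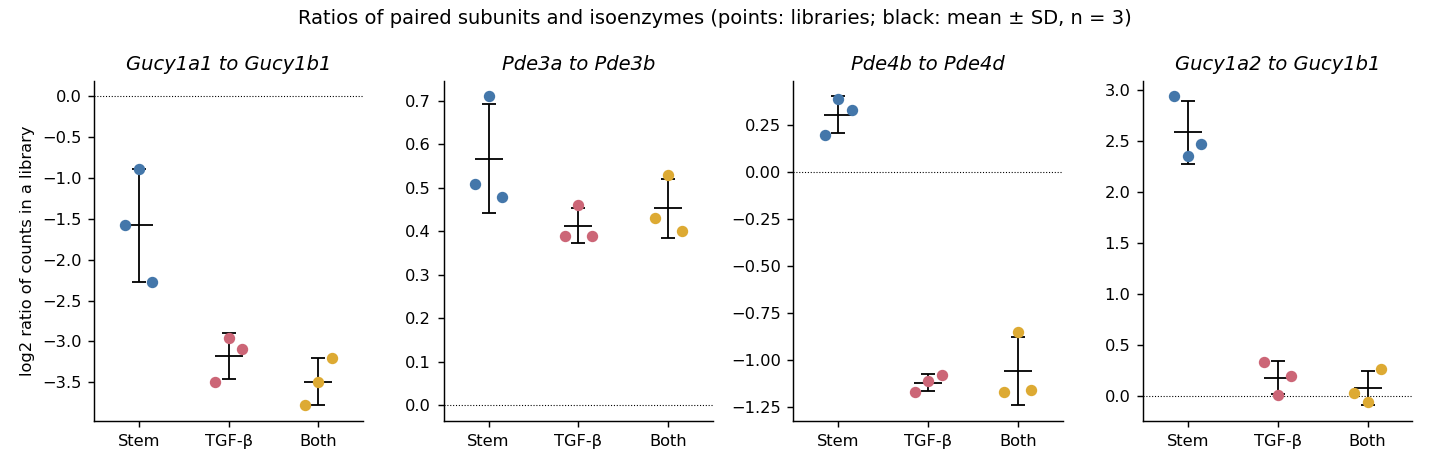
Log2 ratio of counts of 2 genes within each library (vertical axes) for 4 gene pairs; points are libraries and black bars show the mean ± SD. The ratios to *Gucy1b1* and the *Pde4b* to *Pde4d* ratio were higher in the 3 Stem libraries than in the other 6. The *Pde3a* to *Pde3b* log2 ratio stayed between 0.39 and 0.71.

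The promoter windows of the 3 genes past the threshold are shown to set the sequence before each start site beside the direction of change. RefSeq windows on GRCm38.p6, from 250 bases before to 50 after a start site, were at hand for 8 of the 10 genes (16 windows), and not for *Pde3a* and *Pde3b*. A total of 6 motifs were searched on both strands: the cAMP response element TGACGTCA and its core TGACG, the SMAD elements GTCTAGAC and CAGACA, the TEAD element CATTCCT, and the CArG box bound by serum response factor. TGACG also lies within TGACGTCA. For each of the 3 genes the window with the most matches is printed, with ties given to the more upstream window, and capitals mark the matches.
Gucy1b1, chr3:82074662-82074961, minus strand: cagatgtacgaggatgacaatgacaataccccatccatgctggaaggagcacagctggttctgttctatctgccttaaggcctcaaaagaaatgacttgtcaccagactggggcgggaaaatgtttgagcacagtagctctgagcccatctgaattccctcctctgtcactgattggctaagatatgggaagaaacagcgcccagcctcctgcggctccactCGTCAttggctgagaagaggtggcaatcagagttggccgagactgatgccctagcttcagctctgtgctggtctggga
Pde1a, chr2:80038853-80039152, minus strand: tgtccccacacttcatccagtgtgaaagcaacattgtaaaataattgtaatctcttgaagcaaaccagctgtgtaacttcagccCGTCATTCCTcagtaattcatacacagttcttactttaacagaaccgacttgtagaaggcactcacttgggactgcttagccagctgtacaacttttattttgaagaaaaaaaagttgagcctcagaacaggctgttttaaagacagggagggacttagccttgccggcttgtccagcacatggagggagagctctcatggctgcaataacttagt
Pde4b, chr4:102589593-102589892, plus strand: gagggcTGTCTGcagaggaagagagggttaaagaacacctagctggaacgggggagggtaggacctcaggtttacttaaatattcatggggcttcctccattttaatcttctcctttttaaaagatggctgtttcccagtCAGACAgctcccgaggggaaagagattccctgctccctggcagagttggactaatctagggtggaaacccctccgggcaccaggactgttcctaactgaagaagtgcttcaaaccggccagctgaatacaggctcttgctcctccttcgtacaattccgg
The *Gucy1b1* window held 1 core of the cAMP response element, on the opposite strand, beginning at position -28 from the start site. The *Pde1a* window held that core at -166, on the opposite strand, and a TEAD element at -163, on the printed strand. These share bases and form the single stretch in capitals. The *Pde4b* window held CAGACA at -244, on the opposite strand, and at -110. Of all 32851 windows, 20.8% held TGACG, 21.0% CAGACA and 5.36% CATTCCT. The printed *Pde1a* and *Pde4b* windows were picked for their matches, so these shares of single windows are not a like background for them. Windows of these genes that are not printed held matches too, and the *Npr3* window held TGACG at -50. TGACGTCA (1.79% of all windows), GTCTAGAC (0.213%) and the CArG box (1.63%) were in none of the 16 windows, and the windows of *Gucy1a1*, *Prkg1*, *Pde4d* and *Pde5a* held none of the 6. *Pde1a* and *Pde4b* each have 4 windows, and gene-level counts do not tell which start site was used. A match is a description of the letters and not a measured binding site.

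*Prkg1* (ENSMUSG00000052920) encodes cGMP-dependent protein kinase I, through which cGMP lowers calcium and relaxes smooth muscle. Normalized counts were 1994, 2363 and 2243 in Stem, 2004, 2019 and 2073 in TGF-β, and 1737, 1782 and 1846 in Both. Stem and TGF-β overlapped, and all Both libraries lay below the others. The log2 fold change was -0.11 (-0.24 to 0.01, adjusted p = 0.0864) from Stem to TGF-β and -0.18 (-0.31 to -0.06, adjusted p = 0.0673) from TGF-β to Both. From Stem to Both the gene was 1.23-fold lower (log2 fold change -0.30, -0.42 to -0.17, adjusted p = 0.000478). Without Stem replicate 1 the first of these values became -0.18 (adjusted p = 0.00345). *Cstf2t*, which lies within the bounds of *Prkg1* on the opposite strand and had between 1760 and 2775 counts, shares 0 exonic bases with it.

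*Npr3* (ENSMUSG00000022206) encodes the receptor that takes up and clears natriuretic peptides. Its normalized counts were 3479.9, 4973 and 4187 in Stem, 4949, 4915 and 4923 in TGF-β, and 4198, 4813 and 3906 in Both. The TGF-β libraries lay close together, and the Stem libraries were spread widely enough to overlap both other groups. No comparison passed, with log2 fold changes of 0.23 (0.00 to 0.46, adjusted p = 0.0691), -0.20 (-0.42 to 0.03, adjusted p = 0.288) and 0.03 (-0.20 to 0.26, adjusted p = 0.800) for TGF-β over Stem, Both over TGF-β and Both over Stem. The first passed on the adjusted p alone in 2 of 9 fits that left out 1 library (0.37 without Stem replicate 2, adjusted p = 0.00117, and 0.23 without Both replicate 2, adjusted p = 0.0491), with values from 0.11 to 0.37. An antisense transcript, *Gm5144*, shares 321 exonic bases with *Npr3* and had at most 8 counts in a library.

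*Npr3* stood beside unlike neighbors in the natriuretic peptide system, which are named here after their values were seen. The peptide genes *Nppa* and *Nppc* were at the limit of detection in all 9 libraries. *Npr1*, the membrane guanylyl cyclase for atrial peptide, had 187, 137 and 160.1 normalized counts in the Stem libraries, 20.5, 17.2 and 22.5 in TGF-β, and 26.1, 13.8 and 20.2 in Both, a fall of 3.00 on the log2 scale from Stem to TGF-β (adjusted p = 6.13e-08). *Npr2*, the cyclase for C-type peptide, averaged 3641 ± 376, 3840.2 ± 64.6 and 3529 ± 85.3 (SD, n = 3), with no comparison past an adjusted p of 0.05. Stem and TGF-β did not overlap for *Npr1*, whereas the Stem libraries of *Npr2* overlapped both other groups, as those of *Npr3* did. Osteocrin (*Ostn*), a peptide that occupies the clearance receptor, had 1, 0 and 0 counts in Stem and 9, 23 and 19 in TGF-β, at least 5.28-fold higher, taking the limit of 3 counts per library for Stem.

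*Pde1a* (ENSMUSG00000059173), a calcium- and calmodulin-activated enzyme that hydrolyzes cGMP and cAMP, was high in Stem. Normalized counts were 4494, 4441 and 4506 in Stem, 1573, 1564 and 1563 in TGF-β, and 1709, 1646 and 1774 in Both. The groups did not overlap, and TGF-β was lowest. The log2 fold change from Stem was -1.52 (SE 0.038, -1.60 to -1.43, adjusted p = 6.43e-12) for TGF-β and -1.39 (-1.47 to -1.31, adjusted p = 1.46e-11) for Both. Both stood 9.15% above TGF-β (log2 fold change 0.13, 0.04 to 0.21), which did not pass (adjusted p = 0.0638).

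*Pde3a* (ENSMUSG00000041741) and *Pde3b* (ENSMUSG00000030671) encode cGMP-inhibited enzymes that hydrolyze cAMP, the first prominent in vascular muscle and the second in insulin-responsive cells. *Pde3a* had 5268, 6141 and 5530.4 normalized counts in the Stem libraries, 2911, 3040.4 and 3003 in TGF-β, and 2996, 3190.1 and 3043 in Both. *Pde3b* had 3704, 3756 and 3956, then 2216, 2215 and 2289, and 2218, 2203 and 2308. For both genes all Stem libraries lay above the rest, and TGF-β and Both overlapped. From Stem to TGF-β the log2 fold change of *Pde3a* was -0.92 (-1.04 to -0.80, adjusted p = 1.18e-08) and that of *Pde3b* -0.76 (-0.85 to -0.68, adjusted p = 3.87e-09). Neither reached the 2-fold minimum, although *Pde3a* came to -1.04 when libraries were scaled by total counts. With PFI-3 added, the log2 differences of Both from TGF-β were 0.04 (-0.07 to 0.16) for *Pde3a* and 0.00 (-0.09 to 0.09) for *Pde3b*. Their ratio within a library, 1.42, 1.63 and 1.40 *Pde3a* counts per *Pde3b* count in Stem, was 1.31 to 1.37 in TGF-β and 1.32 to 1.45 in the Both group. An antisense transcript, *Gm28523*, shares 741 exonic bases with *Pde3a* and had at most 19 counts.

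*Pde4b* (ENSMUSG00000028525) and *Pde4d* (ENSMUSG00000021699) belong to the cAMP-specific PDE4 family, whose transcripts are themselves induced by cAMP in many cells. *Pde4b* had 1635, 1818 and 1840.2 normalized counts in the Stem libraries, 398, 431 and 424 in TGF-β, and 466, 559.7 and 486 in Both. *Pde4d* had 1421, 1385 and 1467 in Stem, 899, 932 and 893 in TGF-β, and 1052, 1006 and 1083 in Both. For both genes the 3 groups did not overlap, and Both stood between TGF-β and Stem. *Pde4b* had the largest fall of the 10, with a log2 fold change of -2.08 (SE 0.0746, -2.24 to -1.91, adjusted p = 1.35e-10) from Stem to TGF-β and -1.81 (-1.97 to -1.65, adjusted p = 4.11e-10) from Stem to Both. *Pde4d* fell by 0.65 on the log2 scale from Stem to TGF-β (95% interval -0.75 to -0.55, adjusted p = 9.21e-08) and by 0.44 to Both (-0.55 to -0.34, adjusted p = 2.97e-06).

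*Pde4d* was 15.3% higher in Both than in TGF-β (log2 fold change 0.21, 0.10 to 0.31, adjusted p = 0.0195). It was the only one of the 10 past an adjusted p of 0.05 in that comparison, and it passed in 5 of 9 fits that left out 1 library, with adjusted p-values between 0.00848 and 0.0895; it did not without TGF-β replicate 1 or 3 or without Both replicate 1 or 3. *Pde4b* was 20.5% higher (0.27, 0.10 to 0.44) and did not pass (adjusted p = 0.0555), although its adjusted p was below 0.05 in 5 of 10 settings that kept all libraries, this one included, with a range from 0.00906 to 0.06. The setting without a fold-change minimum is among the 10 and is the same fit as this one, so that adjusted p is counted again there. The balance within the family was unlike between Stem and the rest. There were 1.15, 1.31 and 1.25 *Pde4b* counts for each *Pde4d* count in Stem, 0.443, 0.462 and 0.474 in TGF-β, and 0.443, 0.556 and 0.449 in Both, so *Pde4b* had more counts in the first group and fewer in the others. The mean log2 ratio was 0.31 ± 0.096, -1.12 ± 0.0499 and -1.06 ± 0.184 (SD, n = 3) in the 3 groups, which overlapped between TGF-β and Both.

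*Pde5a* (ENSMUSG00000053965) encodes the cGMP-specific enzyme inhibited by sildenafil. Normalized counts were 2341, 2557 and 2488 in Stem, 2212, 2443 and 2241 in TGF-β, and 2155, 2146 and 2123 in Both. Stem and TGF-β overlapped and Both was lowest. The log2 fold change was -0.10 (-0.20 to 0.01, adjusted p = 0.0796) from Stem to TGF-β, -0.10 (-0.21 to 0.00, adjusted p = 0.218) from TGF-β to Both, and -0.20 (-0.31 to -0.10, adjusted p = 0.00236) from Stem to Both. The last, a level 1.15-fold lower, passed on the adjusted p alone. The first did so without Stem replicate 1 (adjusted p = 0.0268) or without TGF-β replicate 2 (adjusted p = 0.0248).

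Levels of different genes were compared per kilobase of the longest annotated transcript. In Stem, *Pde1a* led with 1052 ± 8.14 normalized counts per kilobase (SD, n = 3), followed by *Npr3* with 611 ± 108 and *Pde3b* with 579 ± 20.3, and the ranges of *Npr3* and *Pde3b* overlapped. *Pde3a* (459 ± 36.4) and *Pde4b* (409.95 ± 26.1) came next, then *Pde4d*, *Pde5a* and *Prkg1* between 315 and 339, which overlapped, and far below them *Gucy1b1* (35.8 ± 8.196) and *Gucy1a1* (9.14 ± 5.89). In TGF-β, *Npr3* led with 715 ± 2.59 per kilobase, ahead of *Pde1a* (368 ± 1.34), and *Gucy1b1* (133 ± 5.83) stood above *Pde4b* (97.0 ± 4.01). In Both, *Npr3* again led (625 ± 67.2), *Prkg1*, *Pde3a* and *Pde4d* overlapped in turn, with means from 248.8 to 256.3, and so did *Pde4b* (117 ± 11.4) and *Gucy1b1* (109 ± 4.76). *Gucy1a1* was last in all 3 groups. Of the 10 places, 4 held in Stem and 5 in each other group when the median transcript length was used, and the order is therefore tied to the transcript assumed.

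The 6 enzymes were set beside the other catalytic phosphodiesterase genes on the same scale. Summed over 21 genes, the phosphodiesterases amounted to 3978, 4088 and 4132 normalized counts per kilobase in the Stem libraries, 2348, 2394 and 2375 in TGF-β, and 2399.5, 2445 and 2450.5 in Both. The 6 enzymes supplied 77.8% ± 0.537 (SD, n = 3) of that sum in Stem, 66.0% ± 0.517 in TGF-β and 67.5% ± 0.617 in the Both group. *Pde1a* alone went from 25.9% ± 0.563 to 15.5% ± 0.202 and 16.5% ± 0.621, and *Pde4b* from 10.1% ± 0.456 to 4.09% ± 0.131 and 4.81% ± 0.438. The share of *Pde5a* was 7.96% ± 0.246 in Stem and 12.7% ± 0.591 in TGF-β, with its level per kilobase at 324 ± 14.5 and 302 ± 16.6. *Pde7a*, a cAMP-specific enzyme outside the 10, went from 2.97% ± 0.0977 to 13.2% ± 0.669 and 9.74% ± 0.783. By substrate, enzymes of both nucleotides (PDE1, PDE2, PDE3, PDE10 and PDE11) gave 54.6%, 45.0% and 45.9% of the sum in the 3 groups, cAMP-specific ones (PDE4, PDE7 and PDE8) 37.0%, 42.1% and 42.4%, and cGMP-specific ones (PDE5, PDE6 and PDE9) 8.46%, 12.9% and 11.7%. These shares are descriptions, and they depend on the transcript lengths assumed. With the median transcript length, an alternative added after the data were seen, the 6 enzymes gave 71.7%, 47.8% and 52.1% in Stem, TGF-β and Both, and *Pde7a* gave 9.25%, 32.7% and 25.8%. On that scale the enzymes of both nucleotides came to 56.2%, 37.6% and 40.8% and the cAMP-specific ones to 39.0%, 56.5% and 53.5%, so that the order of these classes in TGF-β and Both turns on the length used.

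**Figure D4:**
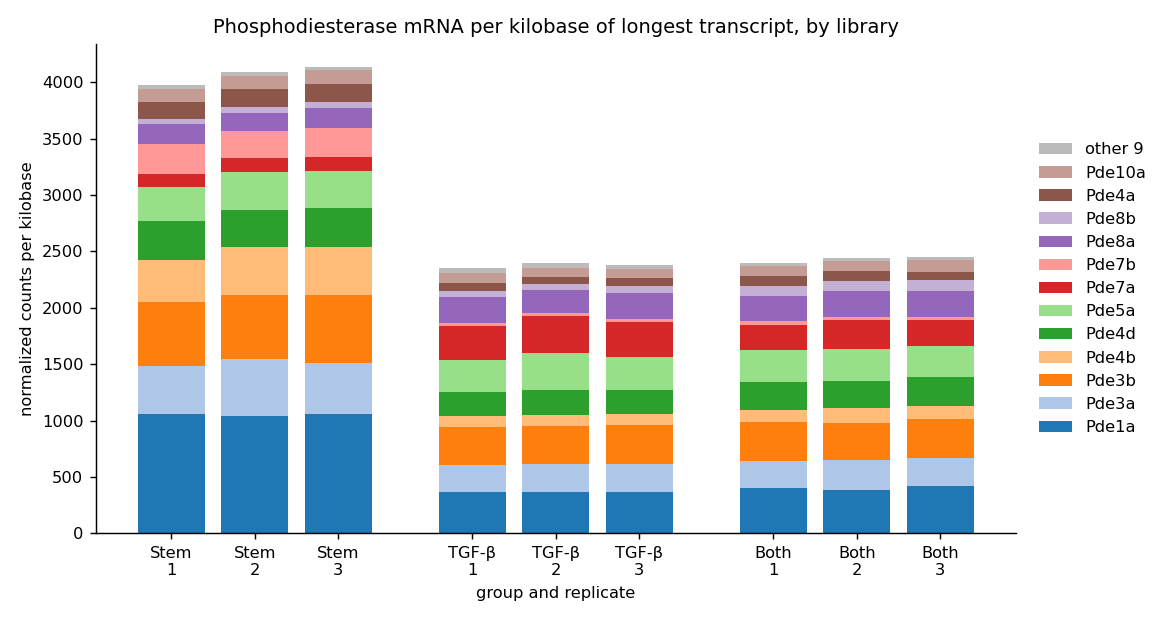
Normalized counts per kilobase of the longest transcript (vertical axis, from 0) of the catalytic phosphodiesterase genes, stacked in each of the 9 libraries; 12 genes are colored and the other 9 are gray. The stacks reach 3978 to 4132 in Stem and 2348 to 2450.5 in the other 6 libraries, and the segments of *Pde1a*, *Pde4b* and *Pde7b* are smaller and that of *Pde7a* larger outside Stem.

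For each of the 10 genes, the gene with the most similar pattern over the 9 libraries was found among 10868 genes that averaged 100 or more normalized counts, by the root mean square difference of log2 levels centered on each gene's mean. The nearest match of all was between *Pde3a* and *Arhgap29*, with a difference of 0.0198. *Pde1a* was nearest to *Bmper* (0.0360), a BMP-binding secreted regulator, *Pde3b* to *Nfkb1* (0.0340), a subunit of NF-κB, and *Pde4b* to *Osmr* (0.0882), a receptor subunit for oncostatin M. *Pde4d* was nearest to *Dexi* (0.0404), *Pde5a* to *Khdrbs1* (0.0357), *Prkg1* to *Cdon* (0.0407), *Npr3* to *Pgm5* (0.0478) and *Gucy1b1* to *Gjb5* (0.0795). *Gucy1a1* had no close match, its nearest gene being *Hist2h4* at 0.300, a histone gene with near-identical copies whose counts are uncertain. Libraries of a group share their treatment, so the likeness rests mainly on 3 group levels.

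The rest of the pathway was described from a list of 95 genes, of which 72 were tested. From Stem to TGF-β, 8 rose and 14 fell past the threshold with the 2-fold minimum (30.6% of those tested, against 25.1% of all genes), and 56 passed on the adjusted p alone (77.8%, against 75.0% of all genes), 20 higher and 36 lower (37.3% and 37.7% of all genes). The median log2 fold change was -0.22. From Stem to Both, 7 rose and 14 fell (9.55% and 13.2% of all genes). Between TGF-β and Both none passed with the minimum in edgeR or DESeq2, 22 had an unadjusted p below 0.05, and 14 (19.4%, against 8.92% of all genes) passed on the adjusted p alone, 7 in each direction. Genes named below beyond the 3 or 4 largest changes of each direction were chosen after their values were seen.

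Of 9 Gs-coupled receptors tested, which raise cAMP, 5 fell from Stem to TGF-β, none rose and 4 did not pass, where 14.5% of all genes fell and 10.6% rose. *Ptgir*, the prostacyclin receptor, had 656, 842 and 732 normalized counts in the Stem libraries, 50.7, 56.8 and 55.7 in TGF-β, and 47.7, 55.3 and 32.5 in Both, a fall of 13.6-fold from Stem to TGF-β (log2 fold change -3.77, -4.09 to -3.45, adjusted p = 2.92e-10). The prostaglandin E2 receptor gene *Ptger4* averaged 838 ± 112, 94.7 ± 14.4 and 145 ± 20.4 (SD, n = 3) and was 8.87-fold lower in TGF-β than in Stem (adjusted p = 8.05e-10). *Adcyap1r1*, the PACAP receptor, averaged 17021 ± 3280, 2165 ± 109 and 1895 ± 272 and was 7.86-fold lower (adjusted p = 1.04e-09). *Adora2a* and *Calcrl*, receptors for adenosine and for calcitonin gene-related peptide or adrenomedullin, were the other 2, at 4.59-fold and 2.42-fold lower. *Ptger4* was 1.54-fold higher in Both than in TGF-β (adjusted p = 0.031), while the difference for *Ptgir*, -0.28 on the log2 scale, overlapped between groups.

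Among 9 adenylyl cyclases, which make cAMP, 1 rose past the threshold from Stem to TGF-β and none fell, against the same backgrounds. By less than 2-fold, *Adcy1*, *Adcy5*, *Adcy6* and *Adcy9* were lower at an adjusted p below 0.05 (log2 fold changes -0.93, -0.53, -0.58 and -0.65). *Adcy2* and *Adcy8* were higher on the same terms (0.75 and 0.59), and *Adcy3* and *Adcy4* did not pass. From Stem to Both, *Adcy1* fell past the threshold (-1.36, adjusted p = 4.62e-05). *Adcy7* had 1341, 1192 and 1238 normalized counts in the Stem libraries, 7425, 7001 and 7456 in TGF-β, and 8129, 7308 and 7868 in Both. It was 5.80-fold higher in TGF-β (log2 fold change 2.54, 2.41 to 2.66, adjusted p = 2.40e-12) and 6.18-fold higher in Both than in Stem. *Adcy5*, an isoform inhibited by calcium, averaged 153 ± 14.4 in TGF-β and 254 ± 21.7 in Both and was 1.67-fold higher in Both (adjusted p = 0.00268), without reaching 2-fold. In the same comparison *Adcy3* was 1.19-fold lower in Both (adjusted p = 0.015) and *Adcy4* 1.63-fold lower (adjusted p = 0.0179). The remaining cyclases tested did not pass an adjusted p of 0.05 between TGF-β and Both.

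Downstream, *Prkg2*, the gene of cGMP-dependent protein kinase II, had 69.1, 82.6 and 82.2 normalized counts in the Stem libraries, 185, 219 and 259 in TGF-β, and 203, 182 and 171 in Both, and was 2.84-fold higher in TGF-β than in Stem (adjusted p = 1.28e-06). *Irag1*, named *Mrvi1* in the symbol table, encodes the substrate through which cGMP-dependent kinase I restrains the inositol trisphosphate receptor. It had 1187, 1429 and 1310.1 normalized counts in the Stem libraries, 202, 173 and 193 in TGF-β, and 230.5, 168 and 194 in Both, 6.90-fold lower in TGF-β (adjusted p = 2.56e-10) and 6.61-fold lower in Both than in Stem. *Prkg1* itself had a log2 difference of -0.11 between Stem and TGF-β, which did not pass. Of 8 tested subunits and inhibitors of cAMP-dependent kinase, only *Prkar2b*, a type II regulatory subunit, passed the threshold in that comparison (25.1% of all genes), falling 5.99-fold (adjusted p = 2.33e-10), and the catalytic subunit genes *Prkaca* and *Prkacb* had log2 differences of 0.02 (-0.09 to 0.12) and -0.06 (-0.16 to 0.03). By less than 2-fold, *Prkar2a* (log2 fold change 0.69, adjusted p = 3.68e-08) and *Pkig* (0.75, adjusted p = 1.01e-06) were higher in TGF-β than in Stem. On the same terms *Prkar1b* (-0.74, adjusted p = 3.69e-07) and *Prkar1a* (-0.13, adjusted p = 0.00426) were lower, and *Pkia* did not pass. *Rapgef4*, which encodes the cAMP sensor Epac2, had at most 1 count in a Stem library and 76.8 ± 12.1 normalized counts in TGF-β, at least 23.6-fold higher with the limit of 3 counts per library for Stem.

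Of 11 other phosphodiesterases tested, 3 rose and 4 fell from Stem to TGF-β (10.6% and 14.5% of all genes). The PDE7 genes, both cAMP-specific, moved in opposite directions. *Pde7b* had 1421, 1289.8 and 1387 normalized counts in the Stem libraries, 134, 124 and 126 in TGF-β, and 169, 153 and 153 in Both, and was 10.7-fold lower in TGF-β than in Stem (log2 fold change -3.42, -3.57 to -3.26, adjusted p = 1.60e-12). *Pde7a* had 717, 785 and 783, then 1860.4, 2097 and 1964, and 1414, 1638 and 1423, and was 2.59-fold higher in TGF-β (1.37, 1.22 to 1.53, adjusted p = 3.12e-09). Neither gene's Stem libraries overlapped the others. In Both, *Pde7a* was 1.32-fold lower (adjusted p = 0.00274) and *Pde7b* 1.24-fold higher (adjusted p = 0.0426) than in TGF-β. *Pde8b*, also cAMP-specific, had 214, 237 and 219 in Stem, 227, 209.9 and 239 in TGF-β, and 375, 364 and 414 in Both. It thus differed from TGF-β to Both (1.71-fold higher, 0.77, 0.59 to 0.96, adjusted p = 0.000217), and *Pde4d*, among the 10, differed in the same direction by 1.15-fold. The remaining changes from Stem to TGF-β were of *Pde4a*, 2.19-fold lower, and of *Pde1b* and *Pde2a*, higher, and *Pde1c* and *Pde9a*, lower, none of these last 4 averaging as many as 100 normalized counts over the 9 libraries.

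**Figure D5:**
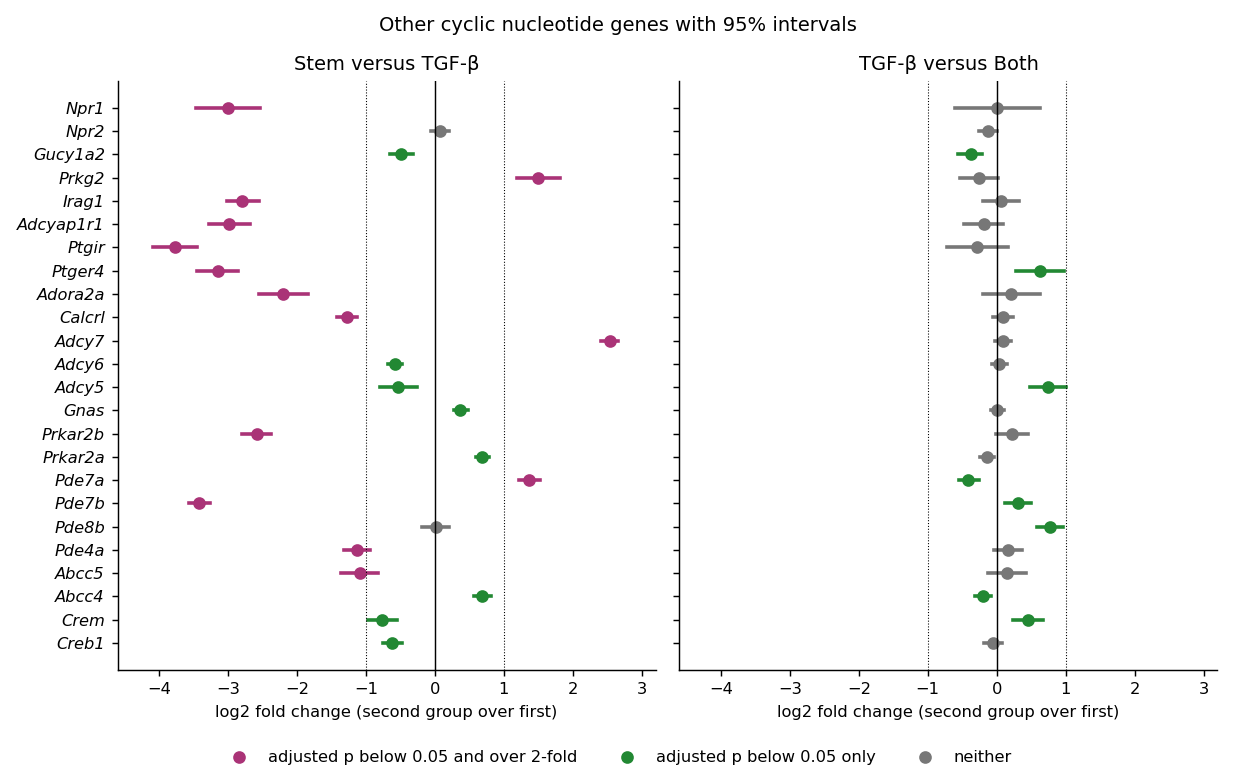
Fitted log2 fold changes (horizontal axes, second group over first) with 95% intervals for 24 other cyclic nucleotide genes, from Stem to TGF-β and from TGF-β to Both. Dotted lines mark 2-fold and colors mark which part of the threshold was passed. The 24 genes were picked by name and not by a rule, so they do not give the share changed. Of all 72 genes of the list tested, 22 passed the threshold from Stem to TGF-β (30.6%). Receptor genes such as *Ptgir* (-3.77) and *Adcyap1r1* (-2.98) lie far to the left and *Adcy7* (2.54) to the right in the first comparison, and no gene passes 2-fold in the second.

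Of the list, 23 genes were too low to test, and 12 had at most 3 counts in every library, *Nos2*, *Nppa*, *Nppc* and *Pln*, the gene of phospholamban, among them. None of the 3 nitric oxide synthase genes was tested. *Nos3*, the endothelial synthase, had 1, 1 and 1 counts in Stem, 3, 8 and 9 in TGF-β, and 4, 8 and 2 in Both.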

How the data were processed

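RNA-Seq was measured in 9 libraries of AdvSca1-SM cells, 3 per group, from ribosome-depleted total RNA. The table the authors deposited holds counts for each Ensembl gene, unnormalized whole numbers with 1 column per library. The submitters' processing notes name HISAT2 2.2.1, SAMtools 1.13 and HTSeq 0.11.3 with GRCm39, whereas the study's methods name Flexbar and STAR. Which aligner made the table is thus unsettled. The kit marks strand, but the strand setting of the counting is not given in the sources used here, so reads of overlapping antisense genes may be mixed. Symbols were found for 52083 of 55416 identifiers, which hold 98.1% of counts, and 67 symbols are borne by several.

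The analysis used edgeR 4.0.16 (R 4.3.3, limma 3.58.1). Genes were kept by filterByExpr, libraries scaled by TMM, and 14879 genes tested in 1 quasi-likelihood fit that held all 9 libraries and a term for group, with Benjamini-Hochberg adjustment over all of them. The threshold was an adjusted p below 0.05 with a log2 fold change beyond 1 in size, as in the study's methods, which name DESeq2. Normalized counts were scaled to 41184338, and fitted fold changes used a prior count of 0.125. The precision of a value follows from its counts and replicates; library totals ranged from 35686291 to 47741128. The script was tested on simulated data with known changes. Ratios, levels per kilobase, patterns and motifs are descriptions with no test. Transcript lengths came from an annotation of GRCm38 and were used only as lengths.

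The 10 genes and all lists were chosen with earlier results of these data known. Named were all 10 genes; from the pathway list, per comparison, the 4 largest rises and 4 largest falls past the threshold that averaged 100 or more normalized counts in groups that do not overlap, and genes at the limit of detection; and the gene of nearest pattern for each of the 10. Alternatives were DESeq2 1.42.0, its size factors, total-count scaling, no filter, a mean of at least 10 counts, a prior count of 2, a test against a 2-fold minimum (TREAT), no fold-change minimum, a replicate block, a fit of only the 6 libraries compared, each library left out in turn, and the median transcript length.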

Additional observations from a re-analysis of the deposited data

How the results depend on the processing

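The count of the 10 genes past the threshold was 3, 0 and 3 for Stem versus TGF-β, TGF-β versus Both and Stem versus Both under all alternatives run except the removal of the fold-change minimum and total-count scaling. Without the minimum the counts were 6, 1 and 8, and those of the pathway list 56, 14 and 58. Scaling by total counts took the log2 fold change of *Pde3a* from Stem to TGF-β to -1.04, past the minimum, giving 4 of the 10 genes there, and shifted the median of all genes to -0.122 (Stem to TGF-β) and -0.113 (Stem to Both). A test against a 2-fold minimum left 13 of the pathway list from Stem to Both. With 1 library left out, the counts stayed at 3, 0 and 3 for the 10 genes and ranged from 21 to 23, 0 to 0 and 20 to 23 for the pathway list.

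Of 570 values of single genes under the alternatives, 549 kept direction and side of the threshold, 10 came past it and 11 reversed, the reversals all of values near 0 or of *Gucy1a1*. Apart from *Pde3a* with total-count scaling, the values that came past did so only because the fold-change minimum was removed. That setting leaves the fitted fold changes as they were, so its values, counted in the 570, could not reverse. From Stem to TGF-β *Gucy1a1* came to -0.0558 without Stem replicate 1 and -0.115 without Stem replicate 3, and from Stem to Both to 0.226 without Stem replicate 2; over all such fits it ranged up to 0.824 and down to -0.712 in these comparisons. *Pde3b* from TGF-β to Both came to -0.000385 with DESeq2 size factors, -0.000359 in DESeq2, -0.00642 and -0.00734 without TGF-β replicate 1 or 2, and -0.0194 without Both replicate 3, with 0.0166 the highest of such values. *Npr3* from Stem to Both came to -0.0728 with total counts, -0.084 without Stem replicate 1 and -0.0507 without Both replicate 2, with 0.176 the highest. The cause was not tested. With the median transcript length, 4, 5 and 5 of the 10 genes kept their place in the order of levels in Stem, TGF-β and Both, since that length differs from the longest by unlike factors. That length, applied after the data were seen to the shares of phosphodiesterase mRNA and the alpha to beta ratio, moved all 18 group values by more than 1 SD.

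Whether replicate numbers mark pairs is not settled by the counts. The correlation of same-numbered deviations ranged from -0.05 to 0.44, and not every library correlated best with its own number. Replicate 2 gave 0.38, 0.44 and 0.43 in the 3 comparisons and was best with its own number in each. Replicate 3 gave 0.05, 0.08 and -0.05 and was so in none. A replicate block gave 3, 0 and 3 of the 10 genes and 22, 0 and 21 of the pathway list. On the adjusted p alone, the block brought *Prkg1*, *Npr3* and *Pde5a* from Stem to TGF-β (adjusted p = 0.037, 0.0111 and 0.0353) and *Prkg1*, *Pde1a* and *Pde4b* from TGF-β to Both (0.0159, 0.0347 and 0.00958) below 0.05 in edgeR. No filter gave 0.000196 for *Npr3* and total counts 0.00152 for *Prkg1* and 0.000901 for *Pde5a* in the first comparison. Depth limits *Gucy1a1*, at 23 to 69 counts per library, and the genes with at most 3 counts.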
